A study of Drosophila melanogaster with 6 samples.

Results

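The POU genes of Drosophila melanogaster were followed here in a comparison of body wall and wing/hinge fragments of the wing imaginal disc. The members were all probe sets whose only gene symbol in the platform annotation was nub, pdm2, vvl or acj6, which gave 4 of the 10844 genes named in this way, read by 8 of the 13966 fly probe sets on the array. Of the probe sets, nub and pdm2 have 3 each, and vvl and acj6 have 1 each. RNA came from wild-type wing discs of the third larval instar, divided by dissection into body wall and wing/hinge pieces, with 3 Affymetrix arrays for each and no strain named. The labels describe the arrays as biological replicates without naming separate dissections, so p-values measure the spread between these samples. Pieces of tissue were hybridised whole, so fewer cells of a type and less RNA per cell cannot be told apart.

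POU proteins are transcription factors that bind DNA through a POU-specific domain and a homeodomain joined by a flexible linker. In the fly wing disc, nub (nubbin) is needed for wing growth and is widely used as a marker of the wing pouch, while its neighbour pdm2 encodes a closely related protein that can replace it in part. The gene vvl (ventral veins lacking, also called drifter) acts in the formation of wing veins and of the tracheal system. The gene acj6 is best known in olfactory neurons, where it takes part in the choice of odorant receptor, and pdm3, the remaining fly POU gene, has a related neuronal role.

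The fragments carried the markers of their labels. Of 4 notum markers, 3 were higher in body wall (limma, Benjamini-Hochberg adjusted p under 0.05), against 0.590% of all tested probe sets. Of 4 wing pouch markers, 3 (Dll, dve and bi) were lower in body wall. So were both of 2 hinge markers (zfh2 and Poxn). The share lower over all tested probe sets was 0.325%. Of these, dve and Poxn passed the filter on low values (floor 20.4, given below) through wing/hinge alone. The notum marker pnr passed it through body wall alone. Their part in these counts is therefore not independent of the filter. All 3 adult muscle precursor markers were higher in body wall, although Him passed the filter through body wall alone. Their summed intensity was 1343.4 to 1573 in body wall and 61.7 to 83.2 in wing/hinge, so the body wall fragment held mesodermal cells as well as epithelium. The fat body markers Lsp2 and Fbp1 summed to 810.4 to 901.6 in body wall and 202.1 to 629.6 in wing/hinge, and the 3 haemocyte markers to 169.8 to 347 and 88.5 to 216.1. None of the tested fat body and haemocyte markers was called (limma adjusted p 0.397 to 0.797). The haemocyte marker NimC1 was under the floor on every array and was not tested. No marker with a probe set was listed at 0. The part that these other cell types have in the POU gene differences was not tested. The arrays also fall into those whose brightest fly probe set exceeded 20000 (body wall 1, wing/hinge 1 and wing/hinge 2) and those below it.

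Transcripts of nub, pdm2 and vvl were lower in body wall than in wing/hinge. Of the 8 probe sets, 4 were called lower in body wall, 2 of nub, 1 of pdm2 and 1 of vvl. None was called higher, and 4 did not pass the test. All 8 passed the filter on low values (above an intensity floor of 20.4 on at least 3 arrays). Of these, nub 146291_at and pdm2 143457_at passed it through wing/hinge alone, with most body wall values under the floor. Their part in the counts and the median given here is therefore not independent of the filter. Over the 11698 probe sets tested, 0.915% were called in either direction. Without adjustment, 6 of the 8 had a limma p under 0.05, against 8.97% of all tested. In 5 of the 8 every body wall value lay below every wing/hinge value, against 6.53% of all tested. The median log2 difference (body wall minus wing/hinge) was -2.49 over the 8 probe sets and 0.03 over all tested. The 8 probe sets read only 4 genes, with 3 each for nub and pdm2 on the same arrays. These counts and the median therefore do not stand for 8 separate genes.

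**Figure D1:**
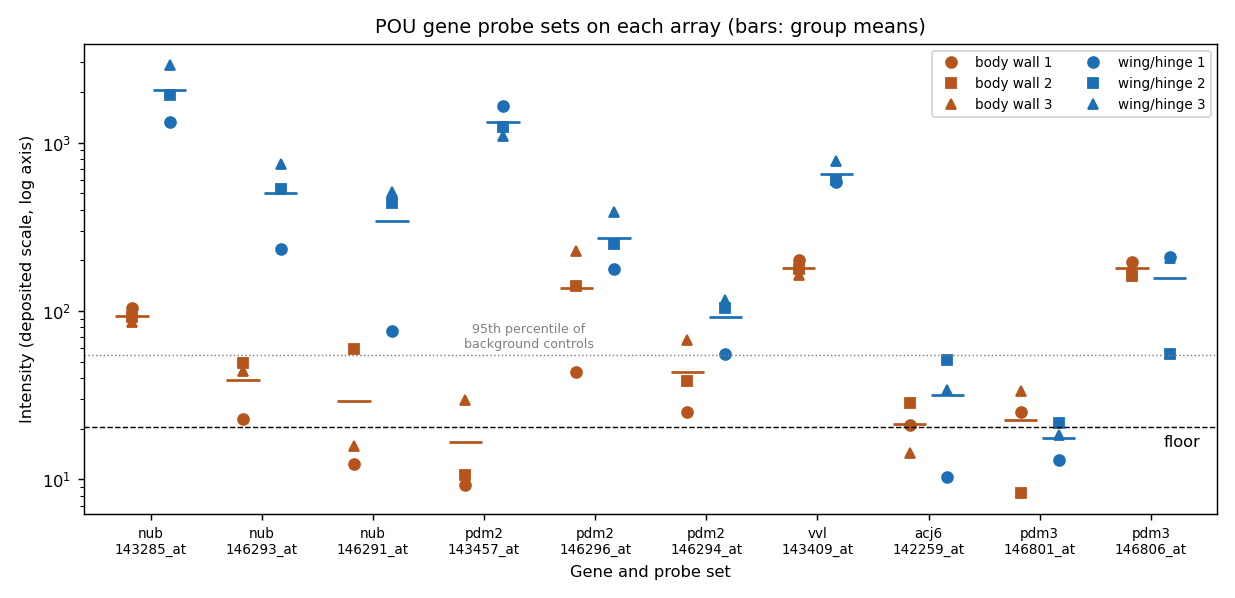
Intensity of each POU gene probe set on each array, on a log axis, with body wall in brown left of wing/hinge in blue. Marker shapes give the replicate, short bars the group means, the dashed line the floor of 20.4 and the dotted line the 95th percentile of control probe sets for RNA of other organisms (55.1). The 3 nub probe sets, pdm2 143457_at and vvl separate the fragments, whereas the other pdm2 probe sets, acj6 and pdm3 overlap.

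The brightest nub probe set, 143285_at, measured 103.8, 92.3 and 85.8 in body wall 1 to 3, against 1332.7, 1910.2 and 2875.3 in wing/hinge 1 to 3. The body wall arrays lay close together, with a coefficient of variation of 9.70%, while the wing/hinge arrays spread by 38.2%. Over all tested probe sets the median coefficient of variation was 26.3% in each fragment. Body wall averaged 94.0 ± 9.12 and wing/hinge 2039 ± 779 (SD, n = 3 each). The log2 difference was -4.37 (SE 0.32, limma adjusted p = 0.00342), the 6th most negative of all tested. Controls for RNA of bacteria, mouse and yeast reached at most 91.8, so the nub signal in body wall lay near the top of the background range. This call was kept with any 1 array left out.

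At the other nub probe sets the same direction was seen with more scatter. Probe set 146293_at measured 22.9, 49.1 and 44.3 in body wall, against 233.1, 531.1 and 745.9 in wing/hinge. Its log2 difference was -3.62 (SE 0.51, limma adjusted p = 0.032), and the call rested on all arrays but 1: leaving out wing/hinge 1 kept it (limma adjusted p = 0.0378), and leaving out any other array ended it (0.100 to 0.115). Probe set 146291_at measured 12.3, 59.4 and 15.9 in body wall, against 75.8, 440.6 and 505.8 in wing/hinge, so the groups did not overlap, although body wall 2 came near wing/hinge 1. Its log2 difference of -3.14 (SE 0.81) did not pass (limma adjusted p = 0.233), and 2 of its 3 body wall values lay under the floor. All 3 nub probe sets were dimmest on wing/hinge 1 and brightest on wing/hinge 3. For the actin controls, intensity at the 3' end over that at the 5' end, a sign of RNA quality, was 2.56, 1.28 and 1.12 on body wall 1 to 3 and 2.98, 1.92 and 1.21 on wing/hinge 1 to 3. The same ratio for the GAPDH controls was 3.65, 2.12 and 2.51 on body wall 1 to 3 and 3.97, 3.23 and 2.56 on wing/hinge 1 to 3. The part of RNA quality in these values and in the comparison of probe sets of one gene was not tested.

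For pdm2 the result depended on the probe set. At 143457_at the intensities were 9.3, 10.6 and 29.8 in body wall, against 1655.1, 1234.7 and 1097.6 in wing/hinge. In body wall 2 of 3 arrays were under the floor and all 3 were within the range of the background controls, whereas the lowest wing/hinge value was 1097.6. The log2 difference was -5.82 (SE 0.28, limma adjusted p = 0.00115), the 2nd most negative of all tested. Since values under the floor were raised to it, the size of this difference moves with the floor, to -6.47 with the floor halved and -5.00 with it doubled. The probe set passed the filter through its wing/hinge values alone. It stayed called in all 16 alternatives, but its SE, its p-values and these repeated calls rest in part on floored body wall values.

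The 2 dimmer pdm2 probe sets gave much smaller differences. Probe set 146296_at measured 43.7, 141.6 and 226.9 in body wall, against 177.4, 251.3 and 385.5 in wing/hinge. Body wall 3 lay above wing/hinge 1, and the log2 difference of -1.20 (SE 0.63, 95% interval -2.70 to 0.29) did not pass (limma adjusted p = 0.669). Probe set 146294_at measured 25, 38.4 and 67.5 in body wall, against 55.6, 103.5 and 116.6 in wing/hinge, again with body wall 3 above wing/hinge 1. Its log2 difference was -1.12 (SE 0.45, limma adjusted p = 0.532). All body wall values of 146294_at lay within the range of the background controls (at most 91.8), which limits the reading of this difference. Both were dimmest on body wall 1 and wing/hinge 1 and brightest on body wall 3 and wing/hinge 3. Probe set 143457_at had its brightest wing/hinge value on wing/hinge 1.

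The single vvl probe set, 143409_at, had a moderate and even difference. It measured 199.8, 176.9 and 164.5 in body wall, against 582, 596.8 and 775.1 in wing/hinge. The coefficient of variation was 9.93% in body wall and 16.5% in wing/hinge, both below the 26.3% typical of these arrays. Body wall averaged 180 ± 17.9 and wing/hinge 651 ± 107 (SD, n = 3 each). The fragments differed by -1.84 on the log2 scale (SE 0.23, limma adjusted p = 0.0224). In body wall, vvl stayed well above the background controls on every array. The call was lost with any 1 array left out (limma adjusted p 0.0711 to 0.108), while the difference itself stayed between -1.71 and -1.92.

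Signal for acj6 lay in the range of the background controls. Its probe set, 142259_at, measured 21.1, 28.3 and 14.3 in body wall, against 10.4, 51.3 and 33.9 in wing/hinge. Every value lay under 55.1, the 95th percentile of the background controls, and the fragments overlapped. The log2 difference was -0.51 (SE 0.37, 95% interval -1.40 to 0.38, limma adjusted p = 0.785). For pdm3, probe set 146806_at measured 196.5, 160.8 and 183.3 in body wall, against 209.6, 55.4 and 205.2 in wing/hinge. One array, wing/hinge 2, stood apart from the rest, and the log2 difference of 0.43 (SE 0.53, limma adjusted p = 0.88) turned to -0.21 without it. The dimmer pdm3 probe set, 146801_at, lay between 8.3 and 33.6 on all arrays and gave 0.32 (SE 0.26, limma adjusted p = 0.81).

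**Figure D2:**
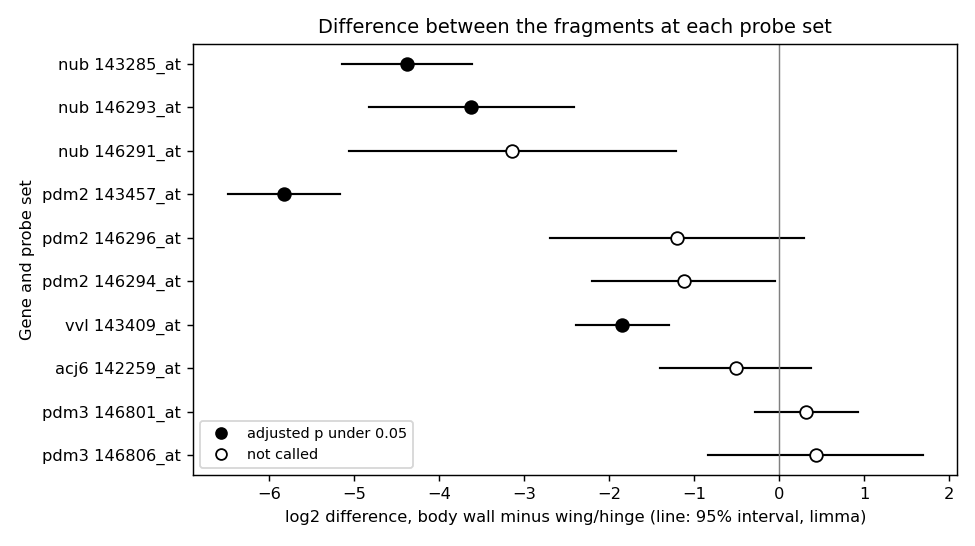
Log2 difference, body wall minus wing/hinge, at each POU gene probe set, with its 95% interval from limma. Filled points passed an adjusted p of 0.05. The differences run from -5.82 at pdm2 143457_at to 0.43 at pdm3 146806_at, and the intervals of the 2 dimmer pdm2 probe sets lie apart from that of the brightest one.

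The probe sets of one gene were then set against each other on the same arrays. For each pair the within-array log2 ratio of the brighter over the dimmer probe set was compared between fragments, for all 1574 pairs of tested probe sets that share a gene (946 genes with several). A gene measured alike by both probe sets gives a ratio that does not change between fragments. Of these pairs 0.254% were called (limma, Benjamini-Hochberg adjusted over all pairs). The 4 called pairs were 2 of pdm2 and 1 each of amd and Nep1, the last 2 genes being named because they complete the count.

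In 2 pdm2 pairs the ratio differed strongly between fragments, and these were the largest fitted changes among the 1574 pairs. Probe set 143457_at was under the floor on body wall 1 and 2 and passed the filter through wing/hinge alone, so the body wall ratios, the sizes and the ranks rest in part on floored values. Its partner 146294_at lay within the range of the background controls in body wall. The log2 ratio of 143457_at over 146294_at was -0.29, -0.91 and -1.18 in body wall, against 4.90, 3.58 and 3.23 in wing/hinge. The change between fragments was -4.70 (SE 0.57, limma adjusted p = 0.0265), and -5.35 with the floor halved or -4.14 with it doubled. For 143457_at over 146296_at the ratios were -1.10, -2.80 and -2.93 in body wall, against 3.22, 2.30 and 1.51 in wing/hinge. This change was -4.62 (SE 0.67, limma adjusted p = 0.0265), and -5.27 or -3.80 with those floors. Each pair was called in 9 of 16 alternatives. With single arrays left out, both calls held only without body wall 1 (limma adjusted p = 0.0334 for each) and reached up to 0.187 in the other fits. The 2 dimmer pdm2 probe sets kept nearly the same ratio to each other in both fragments, with a change of -0.08 (SE 0.49, limma adjusted p = 0.999).

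No nub pair was called by limma. The ratio changed by -0.75 (SE 0.53) for 143285_at over 146293_at, by -1.23 (SE 0.69) for 143285_at over 146291_at and by -0.48 (SE 0.57) for 146293_at over 146291_at, with limma adjusted p from 0.764 to 0.978 and none with an unadjusted p under 0.05, against 7.62% of all pairs. All 3 changes were negative, and the brightest probe set showed the largest difference. The median absolute change over all 1574 pairs was 0.42. The RefSeq gene table (assembly Release 6) lists 3 further CG numbers, the identifiers of annotated gene models, among the names of nub, and 2 among those of pdm2. It lists none for vvl and acj6. Which gene model each probe set was designed on is not given in the sources used here, so the probe sets cannot be assigned to transcripts, of which the table lists 3 for nub and 4 for pdm2.

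**Figure D3:**
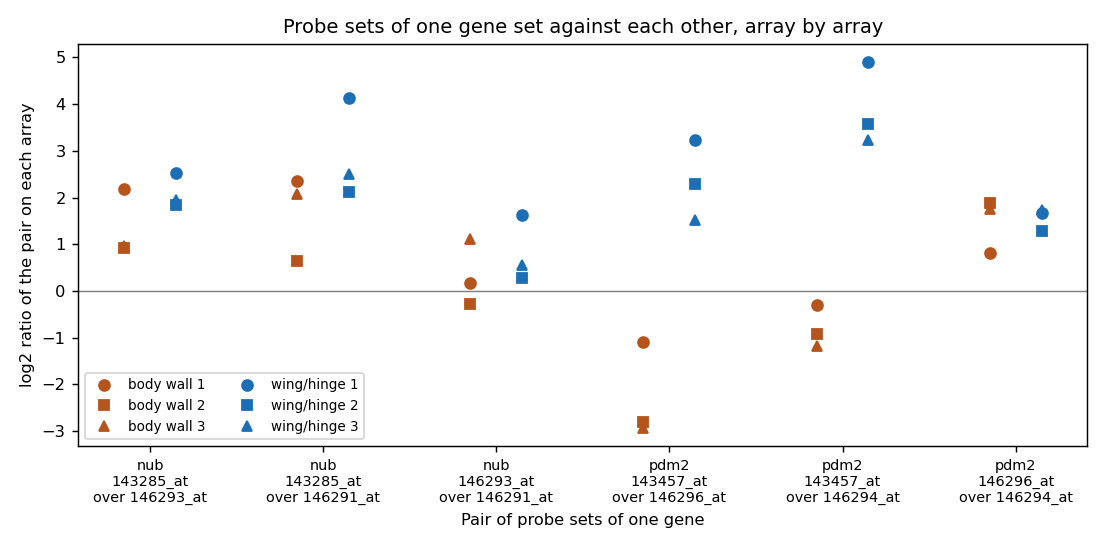
Within-array log2 ratio of 2 probe sets of one gene (values under the floor raised to it), with body wall in brown left of wing/hinge in blue and marker shapes for the replicates. The body wall and wing/hinge points of the 2 pairs holding pdm2 143457_at lie apart, with that probe set at the floor on body wall 1 and 2. The nub pairs and the pair of dimmer pdm2 probe sets shift by at most 1.23.

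Within each set of arrays defined by the brightest values the 8 probe sets of the 4 genes kept their directions. Body wall 1 minus wing/hinge 1 and 2 gave -3.94 for nub 143285_at, -6.13 for pdm2 143457_at and -1.56 for vvl. Body wall 2 and 3 minus wing/hinge 3 gave -5.01, -5.48 and -2.18 for the same probe sets. Each set holds a single array of one fragment, so these are values without a test, and groups that do not overlap fix their direction. With the sets as a block in limma, 3 of the 8 probe sets were called. The call of vvl ended there, at an adjusted p = 0.0611, with a log2 difference of -1.87.

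The genes nub and pdm2 lie next to each other on chromosome arm 2L, and their map neighbours did not share the difference. In the RefSeq gene table, Ref2 lies between them and Nepl7 within pdm2. The probe sets of both reached at most 11.1 and 17.9 on any array, all under the floor. Of the genes with a tested probe set on either side, bun, CG5418 and Oatp33Eb gave log2 differences of 0.13, 0.51 and -0.24. On the far side CCT4, which encodes a subunit of the cytosolic chaperonin, CG6153 and IFT43 gave 0.11, -0.05 and 0.17. None of these 6 was called (limma adjusted p 0.719 to 0.981), and their fragments overlapped. Around vvl the 6 neighbours ran from -0.77 for Rsph3 to 0.22 for Sbds, and around acj6 from -0.39 for Pp1-13C to 1.55 for Cngl, an ion channel gene, again without a call.

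**Figure D4:**
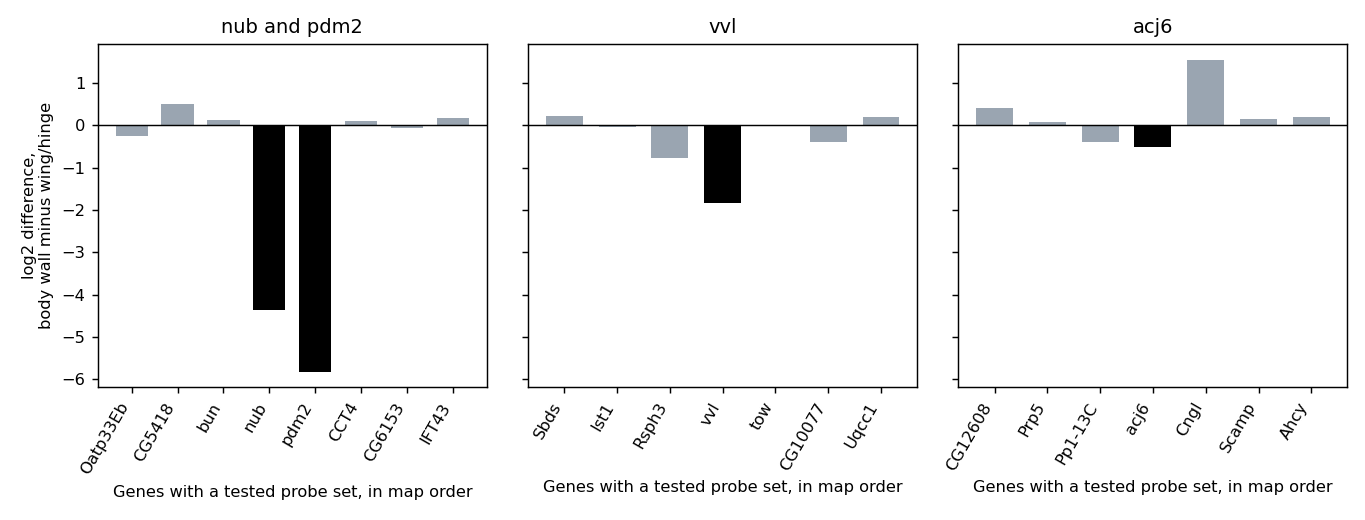
Log2 difference, body wall minus wing/hinge, of nub and pdm2, vvl and acj6 (black bars, brightest probe set) and of the 3 nearest genes with a tested probe set on each side (grey bars), in map order. The black bars of nub (-4.37) and pdm2 (-5.82) stand between neighbours that range from -0.24 to 0.51.

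Genes with the most similar profile over the 6 arrays were listed by the root mean square (RMS) difference between log2 values centred on each probe set's own mean. For nub 143285_at these were kn (0.42), a COE factor of the central wing, tey (0.47), the homeobox gene dve (0.57), the neprilysin gene Nep1 (0.64, at its probe set 151911_at) and CG9008 (0.68). For pdm2 143457_at they were peg (0.29), whose product is secreted and binds Wingless, dve (0.37), tey (0.61), nub itself (0.91) and kn (0.99). The transcripts of peg measured 95.2, 170.1 and 174.8 in body wall, against 11508.4, 9951 and 8006.3 in wing/hinge. Like pdm2 at this probe set, peg was brightest on wing/hinge 1 and dimmest there on wing/hinge 3, the reverse of nub. For vvl the closest were CG5758 (0.10), rec (0.11), the neuropeptide receptor gene Pdfr (0.15), the integrin gene if (0.22) and the Dpp target gene Dtg (0.22). In body wall all values of tey, rec and Pdfr, and 2 of 3 values of kn, dve, Nep1 and pdm2 143457_at, lay under the floor, which flattens these profiles there and bears on the order of likeness. CG5758 measured 215.7, 197.1 and 207.3 in body wall, against 613.9, 658.9 and 784.9 in wing/hinge. The profiles share the same 6 arrays, and the measure is a description.

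**Figure D5:**
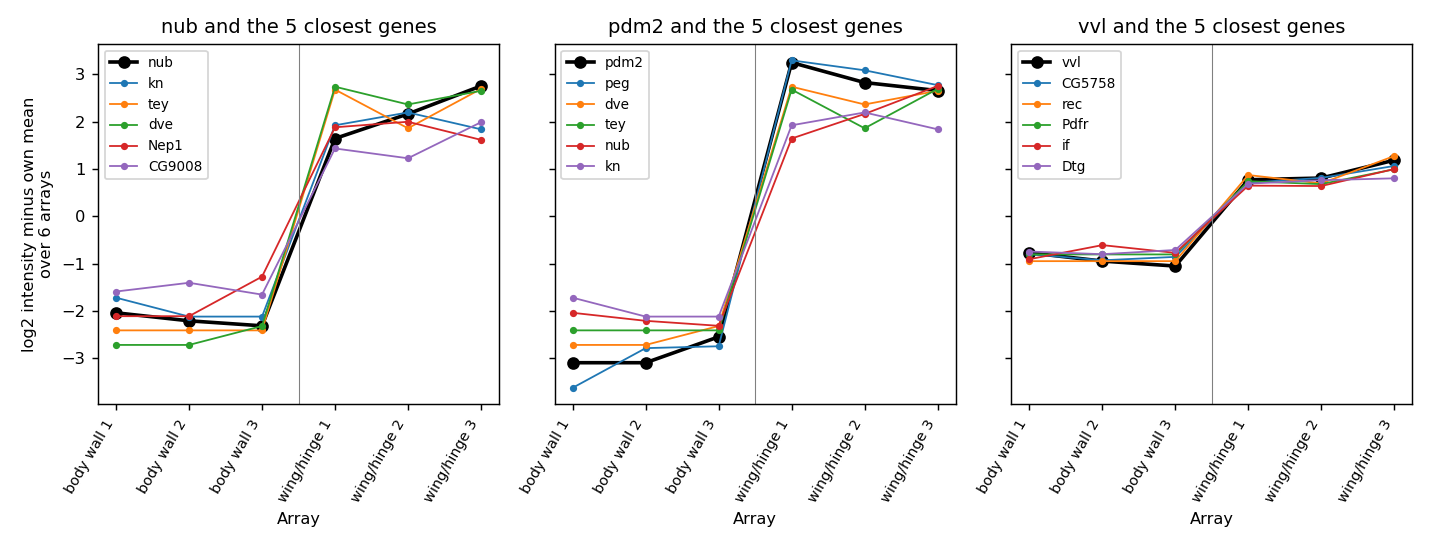
Log2 intensity on each array minus the probe set's own mean over the 6 arrays, for nub, pdm2 and vvl (black, brightest probe set) and the 5 genes closest to each by RMS difference (coloured). Body wall arrays stand left of the vertical line and wing/hinge arrays right of it. Body wall lies below wing/hinge in each, by -1.84 for vvl, -4.37 for nub and -5.82 for pdm2.

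Regulators that work with the POU genes in the wing were examined as lists, whose counts are read against the 0.915% called and the 8.97% with an unadjusted p under 0.05 among all tested probe sets. Of 12 tested regulators of the wing pouch and hinge, 4 were lower in body wall, against 0.325% of all tested probe sets, none was higher and 8 did not pass. The called genes were the homeobox genes dve (-5.17, SE 0.24) and Dll (-4.07, SE 0.55), zfh2 (-2.87, SE 0.23), which acts in the hinge, and the T-box gene bi (-2.49, SE 0.30). All 4 were already counted among the wing pouch and hinge markers above, at the same probe sets, so this count is not a separate result. The calls of dve and zfh2 held with any single array omitted, whereas Dll was called only without body wall 1 and bi only without body wall 2, out of 6 such fits each. Blocked by the brightest values, Dll and bi missed the threshold (limma adjusted p 0.0715 and 0.0574). The list median was -0.79, against 0.03 over all tested probe sets. Without adjustment 8 of the 12 had a limma p under 0.05, among them tsh and bs, which were higher in body wall. The largest differences among uncalled members were nab (-3.10), a cofactor of the zinc finger protein Rn, vg (-1.12), tsh (1.01), bs (0.87) and rn (-0.46). At 3 further probe sets rn gave -1.94, -1.64 and -2.17, none of them called, and nab was called at a dimmer probe set (-2.88), in 3 of the 6 fits with an array omitted. Of 13 vein genes tested, kn alone was called (-3.97, SE 0.24, limma adjusted p = 0.00154), also with any array omitted, and the median was -0.12. Without adjustment 2 of the 13 had a limma p under 0.05, kn and bs. In body wall dve and kn were each under the floor on 2 of 3 arrays and passed the filter through wing/hinge alone, so their sizes, SEs and repeated calls rest in part on floored values. The called nab probe set was under the floor on every body wall array (13.3, 13.5 and 8.8), so its size and calls have the same limit. The rn probe set at -2.17 also passed the filter through wing/hinge alone. Uncalled among the vein genes were bs, net (-0.71), caup (0.69), ara (0.66) and knrl (-0.60), among others.

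Tracheal genes, among which vvl acts, gave no call. None of 7 tested passed limma (0.915% of all tested did), 1 had an unadjusted p under 0.05 (8.97% of all tested did), and their median was -0.35. That gene was btl, the FGF receptor of tracheal cells. It measured 123.5, 80 and 37.9 in body wall, against 11.6, 18.5 and 14.2 in wing/hinge. Its log2 difference of 1.82 (SE 0.43, limma adjusted p = 0.18) had the opposite direction from vvl. Every wing/hinge value of btl lay under the floor, so it passed the filter through body wall alone. The size, SE and unadjusted p of btl therefore rest in part on floored values. The others with the largest differences were knrl, kni (-0.55), esg (-0.52) and tgo (-0.35).

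Sox proteins bind DNA together with POU proteins in several settings. Of 8 Sox genes tested, Sox15 was lower in body wall (-2.54, SE 0.34, limma adjusted p = 0.0259), none was higher and 7 did not pass, with a median of 0.34. Without adjustment 3 had a limma p under 0.05 (8.97% of all tested did). These were Sox15, and Sox100B and Sox102F, both higher in body wall with groups that do not overlap. The call of Sox15 held in 1 of 6 fits with an array omitted, that without body wall 1, and the other Sox15 probe sets gave -4.38 (called) and -1.34 (limma adjusted p = 0.578). Neither called one passed with the block by brightest values (limma adjusted p 0.0715 and 0.0703). The largest uncalled differences were those of Sox100B (1.11), Sox102F (1.06), Sox14 (0.45), Sox21a (0.37) and Sox21b (0.31). Of the temporal factors that act with nub and pdm2 in embryonic neuroblasts, hb (0.31), svp (0.21) and grh (-0.17) were tested and none was called, also without adjustment.

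Neuronal genes around acj6 were not called in either direction (6 tested, 1 with an unadjusted limma p under 0.05, median 0.14). The neuronal RNA-binding protein gene elav measured 125.6, 89.7 and 119.5 in body wall, against 113.6, 57.5 and 142.4 in wing/hinge, and pros gave 1.15, nSyb -0.48, ChAT 0.43, nerfin-1 -0.25 and elav 0.18. Of immune genes that nub and vvl are known to regulate or to act beside, 6 were tested and none was called (limma, 1 with an unadjusted p under 0.05, median -0.01). The antimicrobial peptide genes CecB, Mtk, DptB and Drs gave -1.07, -0.45, -0.39 and 0.38, and PGRP-SC2 gave 0.46. CecB, the gene with the unadjusted p under 0.05, and Mtk were under the floor on every body wall array. Both passed the filter through wing/hinge alone, so their differences rest in part on floored values.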

How the data were processed

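RNA of 3 body wall and 3 wing/hinge samples was measured on one-colour Affymetrix arrays from about 8 ug of total RNA, per the labels. The authors deposited 1 linear intensity per probe set and array. Their 2% trimmed means were all 300.0 to 300.1, so they were used as given; the software behind them is not given in the sources used here. Values under the 20th percentile of the pooled fly probe sets (20.4) were raised to it before log2. Probe sets above it on at least 3 arrays were tested with limma 3.58.1 (R 4.3.3; lmFit and eBayes, two-sided, no block, Benjamini-Hochberg over all tested, threshold 0.05), as were the pairs of probe sets. The fits were tested on simulated data. The number of arrays limits the precision. Gene names came from the platform annotation; RefSeq Release 6 served only for names, transcript numbers and neighbours, as the files name no build. A listed gene was represented by its probe set with the highest mean log2 value. Named were all members, pdm3, called list members with up to 5 uncalled ones, the 5 closest profiles and 3 neighbours on each side. Members and lists were chosen with earlier results of these data known. The aliases of body wall 1 and 2 share a number. They were counted as 2 samples because their log2 differences (SD 0.814) varied as much as those of other pairs (0.735 to 0.868). That spread cannot show whether both come from the same RNA, and an alternative averages them.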

Additional observations from a re-analysis of the deposited data

How the results depend on the processing

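Alternatives covered scaling, floor, filter, variance model, replicate block, averaging of body wall 1 and 2, a block by brightest values, each array left out and a 2-fold threshold. The directions of all 8 probe sets held in every one run, and acj6 had no value with the floor doubled. For the 5 whose groups do not overlap, leaving out or averaging arrays or moving the floor could not have reversed the direction. The 4 called probe sets of the POU genes became 2 with body wall 1 and 2 averaged and 2 to 3 with 1 array left out. Over all probe sets the 107 calls became 161 with a trended, robust variance, 49 with body wall 1 and 2 averaged, 52 with the block by brightest values and 34 to 47 with 1 array left out. With the trended variance, nub 146291_at was called (adjusted p = 0.0477). The fits with fewer arrays or a block have fewer degrees of freedom.

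With the replicate number as a block, limma called 10 probe sets in all, 1 of the POU genes (pdm2 143457_at, adjusted p = 0.0499) and 2 pairs, both of pdm2. The labels do not say that a number pairs the fragments. Deviations of same-numbered arrays from their group means correlated at 0.06, -0.16 and 0.19. Body wall 1 and 2 each correlated better with another number, and body wall 3 correlated best with wing/hinge 3. Such correlations cannot show whether same-numbered pieces were dissected together.

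The 4 called probe set pairs became 2 with the floor halved, without the filter and with the block by brightest values, 0 with body wall 1 and 2 averaged (103 at an unadjusted limma p under 0.05) and 0 to 2 with 1 array left out (105 to 113). Without the filter neither pdm2 pair was called (adjusted p 0.0656 and 0.152). The small uncalled changes turned in sign: pdm3 146806_at gave -0.21 (without wing/hinge 2) to 0.75 with 1 array left out, the dimmer pdm2 pair -0.28 to 0.26 (without body wall 1; 0.0023 without wing/hinge 3), and the pdm3 pair -0.55 (without wing/hinge 2) to 0.45, and -0.012 with the block by brightest values. Levels near the background controls limit what can be said of acj6, and of nub, pdm2 143457_at and pdm2 146294_at in body wall.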
